A study of Homo sapiens with 12 samples.

Results

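The 10 genes described here belong to the Wnt signaling pathway and were taken by symbol from a table of 32152 genes: the ligands WNT5A, WNT5B and WNT7B, the receptors FZD2, FZD7 and FZD8, the secreted antagonists DKK1 and DKK3, and AXIN2 and LEF1, genes known as targets of the pathway. All 10 symbols were found, each in 1 row, and all 10 passed the filter on low values. Hs-578T and MDA-MB-231, established lines from triple-negative breast cancers, gave 12 RNA libraries, 6 for each line. Of these, 2 come from parental controls, 2 from ERK5-ko and 2 from MEK5DD cells. ERK5, encoded by MAPK7, is a mitogen-activated protein kinase, and MEK5, encoded by MAP2K5, is the kinase that activates it.

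In the ERK5-ko cells, MAPK7 had been targeted with CRISPR/Cas9, and clones were grown from sorted cells. The MDA-MB-231 ERK5-ko line is 1 clone, the only one that survived, and which Hs-578T clone was sequenced is not given in the sources used here. MEK5DD denotes a MEK5 that is always active, and how these cells were made is not given in the sources used here either. Replicates of a group differ in their passage label by 1, which in MDA-MB-231 was 29 and 30 for parental controls, 7 and 8 for ERK5-ko, and 10 and 11 for MEK5DD. In Hs-578T the labels were 83 and 84 for parental controls and 8 and 9 for both engineered groups. The paper gives the passage of the cells from which the ERK5-ko lines were made. It lies above the ERK5-ko labels in both lines, and in MDA-MB-231 above the parental labels too. The labels of ERK5-ko and parental cells thus cannot be read on the same scale. Against parental controls, genotype cannot be told apart from passage. In Hs-578T the ERK5-ko and MEK5DD libraries carry the same passage labels. In every comparison with ERK5-ko, genotype cannot be told apart from traits of the clone either. Nothing states that replicates came from separate cultures, so p values measure the spread between these libraries only.

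Wnt ligands are secreted glycoproteins that bind Frizzled receptors on the cell surface. In the canonical branch, Frizzled and the co-receptors LRP5 and LRP6 halt the destruction of beta-catenin, which then acts in the nucleus through factors of the TCF/LEF family. WNT5A and WNT5B are best known for branches that do not need beta-catenin, which act on cell shape and migration and have been studied in breast cancer for their place in epithelial-to-mesenchymal transition. Dickkopf proteins such as DKK1 block LRP5 and LRP6, and AXIN2 is a feedback inhibitor that scaffolds the destruction complex.

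Values are RPKM, reads on a gene per kilobase of its gene model scaled to the total reads of the library. Whole reads could be recovered for all 32152 genes, and library totals ranged from 20248162 to 27791195. Replicate pairs differed by more than counting noise in all 6 groups, with a chi-square per degree of freedom of 3.10 to 9.82 in 4 groups, 35.2 in Hs-578T parental controls and 45.7 in Hs-578T MEK5DD. MAPK7 RNA was not lower in cells labelled ERK5-ko, at 0.29 above parental controls on the log2 scale for MDA-MB-231 (adjusted p = 0.0709), against 0.26 for Hs-578T (adjusted p = 0.0624). The paper names both qRT-PCR and Western blot as its checks of the knockout clones. It reports ERK5 protein strongly reduced in both lines, a different measure from RNA. Its text gives no qRT-PCR value for MAPK7 to set beside the RNA levels here. MAP2K5 was higher with MEK5DD, by 3.77 on the log2 scale for MDA-MB-231 (adjusted p = 3.31e-10), against 0.50 for Hs-578T (adjusted p = 0.00492). The mesenchymal genes VIM and CD44 were abundant in all 12 libraries, at 1598 RPKM or more and 819 RPKM or more, and the estrogen receptor gene ESR1 reached 0.12 RPKM. EPCAM and KRT19, genes of luminal epithelial cells, were nevertheless present in MDA-MB-231, at 7.08 to 25.7 and 236 to 776 RPKM, and near 0 in Hs-578T. PECAM1, an endothelial marker, stood at 2.81 to 6.48 RPKM in Hs-578T while CDH5, the other endothelial marker, reached 0.0259 RPKM.

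DNA before the transcription start is shown for 3 members, because many targets of the pathway carry TCF/LEF sites there. RefSeq sequences of the GRCh38.p14 build were matched for 5 members, WNT5A, WNT5B, FZD8, DKK1 and LEF1, and those printed are the 3 with a start whose preceding 250 bases lie outside the annotated exons of the gene. They run in the direction of the gene. WNT7B, FZD2, FZD7, DKK3 and AXIN2 were not matched. The core letters of TCF/LEF sites, CTTTG or CAAAG on the opposite strand, are in capitals.
WNT5A, chr3:55481399-55481648, minus strand: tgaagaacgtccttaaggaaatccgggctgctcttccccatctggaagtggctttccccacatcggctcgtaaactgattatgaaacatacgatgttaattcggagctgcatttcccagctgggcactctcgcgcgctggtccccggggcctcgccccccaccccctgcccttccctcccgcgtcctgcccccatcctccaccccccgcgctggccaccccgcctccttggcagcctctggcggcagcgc
FZD8, chr10:35642297-35642546, minus strand: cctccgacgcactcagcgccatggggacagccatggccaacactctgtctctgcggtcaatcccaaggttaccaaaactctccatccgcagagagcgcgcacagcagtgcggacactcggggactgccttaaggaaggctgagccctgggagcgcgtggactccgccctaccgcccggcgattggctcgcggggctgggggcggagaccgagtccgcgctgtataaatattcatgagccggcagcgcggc
DKK1, chr10:52314031-52314280, plus strand: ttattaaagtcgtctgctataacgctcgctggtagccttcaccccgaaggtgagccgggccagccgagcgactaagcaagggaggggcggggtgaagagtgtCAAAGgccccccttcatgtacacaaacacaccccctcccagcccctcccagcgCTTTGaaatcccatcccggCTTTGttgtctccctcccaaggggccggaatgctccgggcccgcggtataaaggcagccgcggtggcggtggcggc
The DKK1 stretch held 3 matches, which begin 148, 95 and 76 bases before the start, while the WNT5A and FZD8 stretches held 0. A match is found in 42.1% of 35116 stretches of this length, so its presence says little by itself, and its absence says only that these letters are not in this window. The longer form CTTTGAT or ATCAAAG, in 2.26% of them, was in 0 of the 3. The WNT5A start used here lies 9141 bases inside the annotated gene, and the stretch before it lies in no annotated exon of the gene. The starts of FZD8 and DKK1 lie 18 and 15 bases before the annotated gene.

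Taken without any engineering, the lines differed in every member, and 10 of 10 passed the test (limma on log2(RPKM + 0.5), adjusted p under 0.05 over all 13737 genes tested). Of all genes tested, 77.4% passed in this comparison, so that passing is no mark of these genes. DKK1 was the only member with more RNA in MDA-MB-231, at 295 and 271 RPKM in the parental controls against 11 and 6.89 in Hs-578T, a 31.6-fold higher mean. The other 9 members were lower in MDA-MB-231. For WNT5A the parental MDA-MB-231 libraries held 10 and 3 reads and those of Hs-578T 5049 and 5490, a ratio of mean RPKM of 948 (exact 95% interval from counting error alone, 571 to 1835). DKK3 showed 0.939 and 1.5 RPKM in MDA-MB-231 against 213 and 221 in Hs-578T, a ratio of 178 (138 to 227). FZD8 followed with a ratio of 22.8 (17.8 to 29.5). The remaining 6 members, WNT5B, WNT7B, FZD2, FZD7, AXIN2 and LEF1, were 0.77 to 1.57 lower on the log2 scale. The median over all genes in this comparison was 0.19 and moved to -0.02 with median-ratio scaling, which leaves these directions as they are. In bulk RNA, fewer cells that express a gene and less RNA per cell cannot be told apart.

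**Figure D1:**
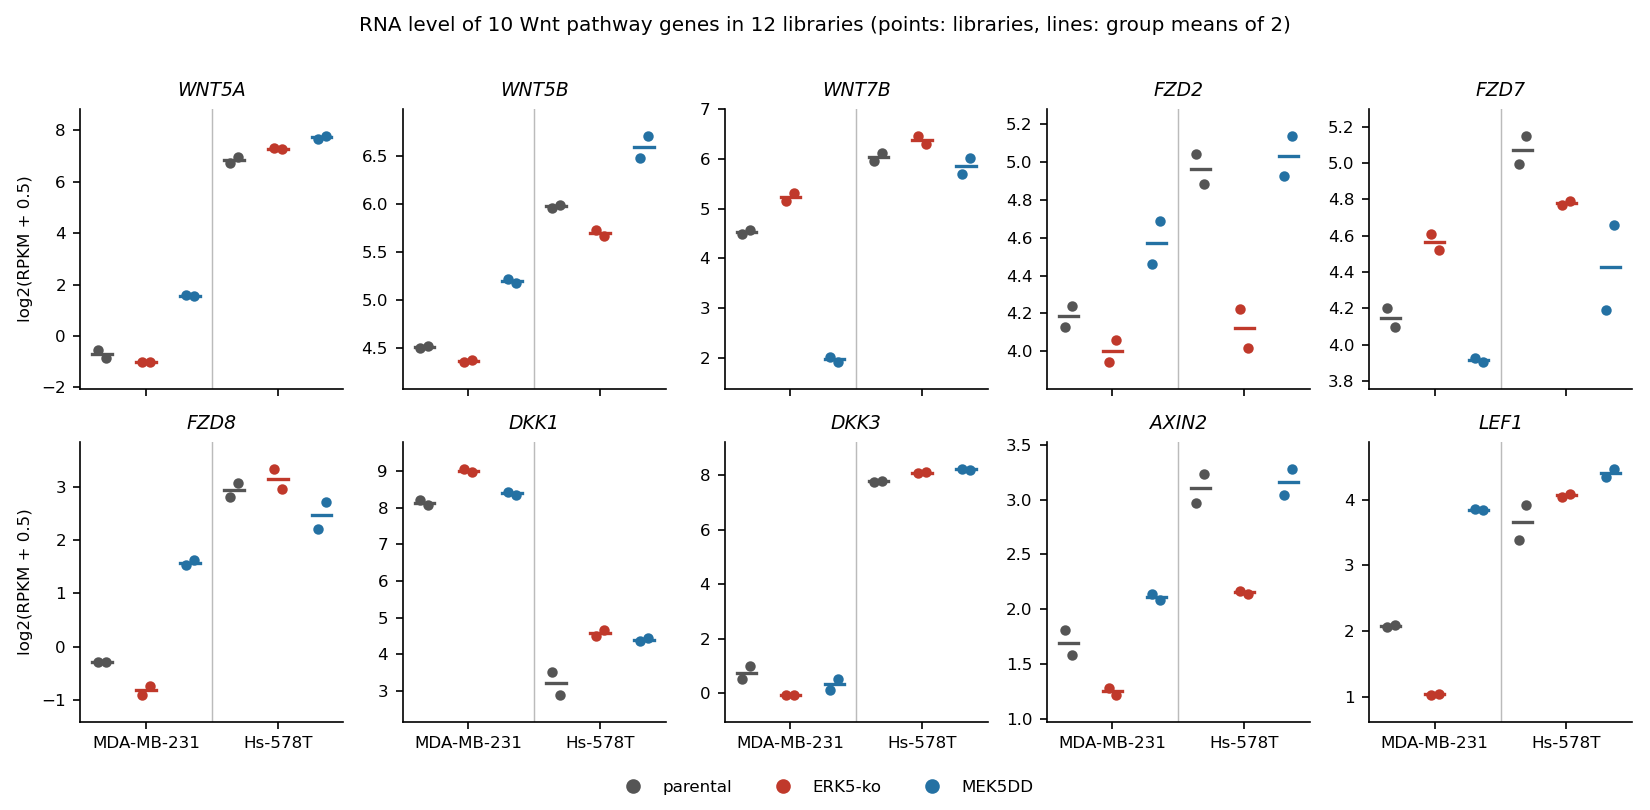
RNA level of each member, as log2(RPKM + 0.5), in the 12 libraries, with MDA-MB-231 left and Hs-578T right of the grey line in each panel. Points are libraries, horizontal lines are means of 2 replicates, and each panel has its own vertical scale. WNT5A and DKK3 sit near the bottom of their scale in MDA-MB-231 and DKK1 near the bottom in Hs-578T.

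Among the ligands, WNT5A (ENSG00000114251.13, chromosome 3, 55465715 to 55490539, minus strand, GRCh38), the best studied ligand of the beta-catenin-independent branch, was higher with MEK5DD in both lines. In MDA-MB-231 it stood at 0.191 and 0.0509 RPKM in parental controls, at 0 and 0 in ERK5-ko, and at 2.53 and 2.42 in MEK5DD. These are 10 and 3, 0 and 0, and 129 and 142 reads, so the MEK5DD libraries stood well clear of the rest. The mean of MEK5DD was 20.5 times that of parental controls (exact 95% interval from counting error, 12.2 to 40.2), and at least 41.4-fold higher than a floor of 3 reads per library in ERK5-ko. On the log2(RPKM + 0.5) scale, which understates the change of low genes, MEK5DD was 2.27 higher than parental controls (standard error 0.125, adjusted p = 8.61e-08). The difference between ERK5-ko and parental controls was -0.30 (standard error 0.125, adjusted p = 0.123) and passed the test with a pseudocount of 0.1 (-1.07, adjusted p = 0.0106) and with limma voom on the recovered reads (-3.43, adjusted p = 0.00909).

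Hs-578T cells carried far more WNT5A, and here both engineered groups were above the parental controls. Levels were 104 and 125 RPKM in parental controls, 156 and 152 in ERK5-ko, and 203 and 219 in MEK5DD, with no overlap between groups. WNT5A rose by 0.88 on the log2 scale with MEK5DD (standard error 0.125, adjusted p = 6.25e-04) and by 0.43 in ERK5-ko (standard error 0.125, adjusted p = 0.0174). The ERK5-ko call was lost without parental replicate 1 (0.30), ERK5-ko replicate 1 (0.42) or ERK5-ko replicate 2 (0.45), with adjusted p from 0.0774 to 0.136.

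WNT5B (ENSG00000111186.12, chromosome 12, 1529891 to 1647243, plus strand), a close relative of WNT5A, was higher with MEK5DD by a like amount in each line. In MDA-MB-231 it was at 22.1 and 22.4 RPKM in parental controls, 19.96 and 20.2 in ERK5-ko, and 36.7 and 35.7 in MEK5DD. In Hs-578T it was at 61.7 and 63.0, 52.6 and 50.4, and 88.8 and 104 RPKM. The order ERK5-ko, parental, MEK5DD thus held in both lines without overlap. With MEK5DD it was 0.69 higher in MDA-MB-231 (standard error 0.0892, adjusted p = 8.46e-05), against 0.62 for Hs-578T (adjusted p = 6.81e-04). The lines differed in this change by 0.07 (95% interval -0.21 to 0.34, adjusted p = 0.706). In ERK5-ko, WNT5B fell by 0.27 on the log2 scale in Hs-578T (adjusted p = 0.0309), a call lost without any 1 of the 4 libraries (adjusted p from 0.0696 to 0.155). The MDA-MB-231 difference was -0.14 (adjusted p = 0.313).

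WNT7B (ENSG00000188064.9, chromosome 22, 45920362 to 45977129, minus strand), a ligand with known roles in the canonical branch, went the other way. In MDA-MB-231 it was at 22.1 and 23.1 RPKM in parental controls, 35.3 and 39.5 in ERK5-ko, and 3.54 and 3.28 in MEK5DD. The MEK5DD mean was 6.62-fold below the parental mean and 11-fold below that of ERK5-ko. WNT7B fell by 2.56 on the log2 scale with MEK5DD (standard error 0.118, adjusted p = 2.17e-08) and rose by 0.72 in ERK5-ko (standard error 0.118, adjusted p = 0.00199). In Hs-578T the levels were 61.9 and 69.0, 87.8 and 78.1, and 51.5 and 64.2 RPKM in the same order of groups, and the MEK5DD and parental libraries overlapped. WNT7B was 0.34 higher in Hs-578T ERK5-ko (adjusted p = 0.0402), a call lost without parental replicate 1 (0.26), ERK5-ko replicate 1 (0.25) or ERK5-ko replicate 2 (0.42), with adjusted p from 0.0665 to 0.22. The MEK5DD difference there was -0.18 (95% interval -0.44 to 0.08, adjusted p = 0.297), and passed without MEK5DD replicate 2 (-0.34, adjusted p = 0.0423).

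In MDA-MB-231, markers of cell state moved along with the MEK5DD label. EPCAM was at 7.08 and 7.79 RPKM in MEK5DD against 18.4 and 19.5 in parental controls, KRT19 at 236 and 252 against 499 and 506, and VIM at 3418 and 3492 against 1610 and 1751. CDH1, the E-cadherin gene, was at 0 and 0.0376 RPKM in MEK5DD against 0.640 and 0.650. In MDA-MB-231 ERK5-ko, EPCAM (24.4 and 25.7 RPKM) and KRT19 (748 and 776 RPKM) were above the parental controls while CDH1 was at 0.579 and 0.640 RPKM. CD44 ranged from 1043 to 1076 RPKM there and from 1276 to 1339 in MEK5DD, against 862 to 914 in parental controls. VIM, at 1598 to 1637 RPKM in ERK5-ko, overlapped the parental controls. The mesenchymal factor ZEB1 ranged from 41.6 to 43.2 RPKM in MEK5DD, 30.2 to 31.0 in parental controls and 19.1 to 22.6 in ERK5-ko. In Hs-578T ERK5-ko, CDH1 ranged from 0.930 to 1.16 RPKM against 0.119 to 0.218 in parental controls. CD44 ranged from 1581 to 1695 RPKM there against 969 to 1048, and ZEB1 from 32.7 to 33.3 against 22.3 to 28.7. KRT19 was lower there, at 0.167 to 0.206 RPKM against 0.260 to 0.354, while EPCAM, ESR1 and VIM overlapped the parental controls. The progesterone receptor gene PGR was lower without overlap in both engineered groups of Hs-578T. Its median was 0.0986 RPKM in ERK5-ko and 0.176 in MEK5DD against 0.325. In Hs-578T MEK5DD, CD44 was at 819 to 838 RPKM and ZEB1 at 31.5 to 36.4, while EPCAM, KRT19, CDH1 and VIM overlapped the parental controls. The part of these differences in the Wnt genes was not tested.

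**Figure D2:**
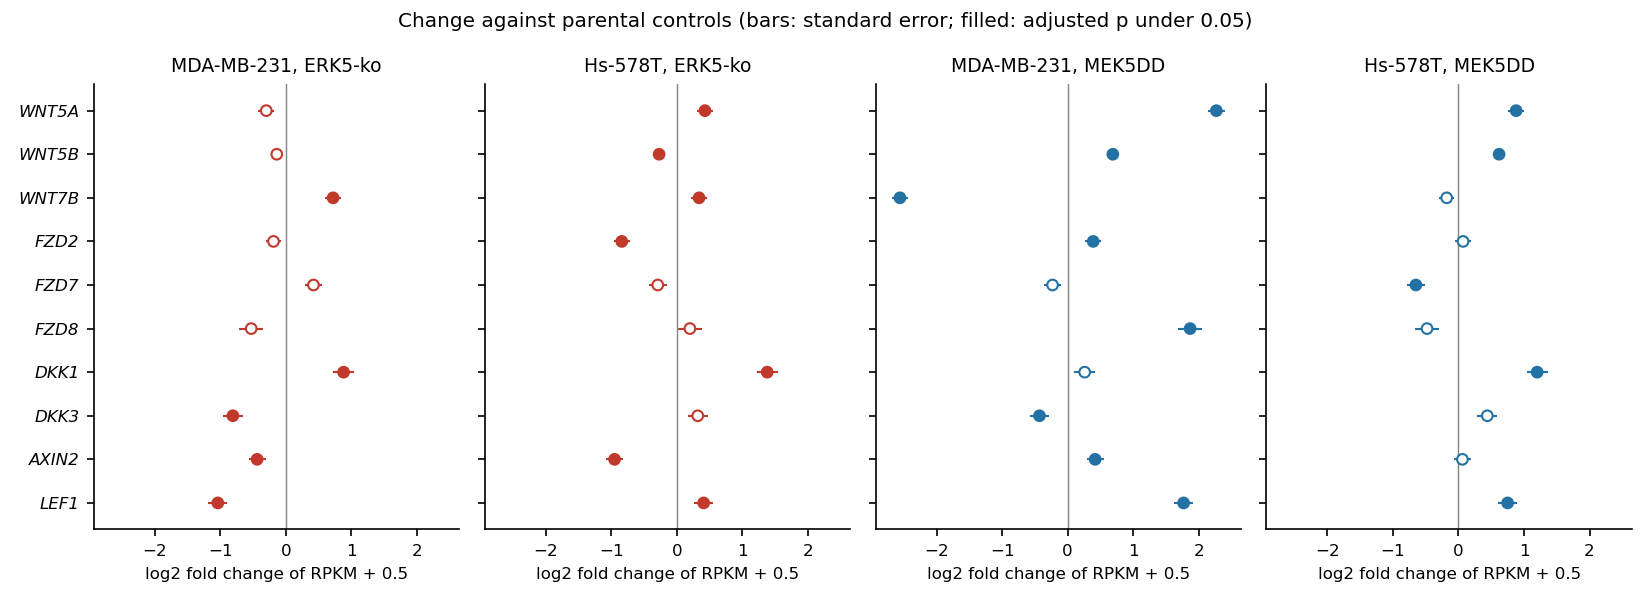
Log2 fold change of RPKM + 0.5 against the parental controls of the line for each member, in the 4 comparisons of the study. Bars are standard errors and filled points have an adjusted p under 0.05. WNT7B at -2.56 and WNT5A at 2.27 in MDA-MB-231 MEK5DD are the outermost points.

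Of the Frizzled receptors, FZD2 (ENSG00000180340.6, chromosome 17, 44557459 to 44559570, plus strand), known as a receptor for WNT5A, differed most in Hs-578T ERK5-ko. Hs-578T levels were 32.4 and 29 RPKM in parental controls, 18.2 and 15.7 in ERK5-ko, and 29.9 and 34.7 in MEK5DD. The ERK5-ko libraries lay apart from the other 4, which overlapped. FZD2 fell by 0.84 on the log2 scale in ERK5-ko (standard error 0.121, adjusted p = 2.75e-04), and the MEK5DD difference was 0.07 (95% interval -0.20 to 0.33, adjusted p = 0.735). In MDA-MB-231 the levels were 17.0 and 18.4 RPKM in parental controls, 14.9 and 16.2 in ERK5-ko, and 21.5 and 25.3 in MEK5DD. MEK5DD was 0.39 higher (adjusted p = 0.0230), a call lost without parental replicate 1 (0.33), parental replicate 2 (0.44) or MEK5DD replicate 2 (0.27), with adjusted p from 0.0561 to 0.196. The ERK5-ko difference was -0.19 (adjusted p = 0.332).

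FZD7 (ENSG00000155760.2, chromosome 2, 202034587 to 202038445, plus strand), a receptor often studied in triple-negative breast cancer, was at 17.9 and 16.6 RPKM in MDA-MB-231 parental controls, 23.9 and 22.5 in ERK5-ko, and 14.7 and 14.5 in MEK5DD. The 3 groups did not overlap. The ERK5-ko difference of 0.42 (standard error 0.133) had an adjusted p of 0.0510 (0.0156 with a block for the replicate number), while the MEK5DD difference was -0.23 (adjusted p = 0.196). The former also passed with other scaling, a filter at an RPKM of 1, voom and the libraries of this line alone (adjusted p from 0.0116 to 0.0499), and the latter with this line alone (adjusted p = 0.0321). In Hs-578T the levels were 31.4 and 35.0 RPKM, 26.8 and 27.2, and 17.8 and 24.8. Both engineered groups lay below the parental controls, and the MEK5DD replicates lay far apart. FZD7 fell by 0.65 on the log2 scale with MEK5DD in this line (standard error 0.133, adjusted p = 0.00553). The Hs-578T ERK5-ko difference was -0.29 (adjusted p = 0.106, and 0.0420 with the replicate block).

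FZD8 (ENSG00000177283.5, chromosome 10, 35638249 to 35642278, minus strand), a receptor known to signal together with LRP5 and LRP6, was low in MDA-MB-231 and highest there in MEK5DD. Its levels were 0.321 and 0.313 RPKM in parental controls, 0.0330 and 0.0994 in ERK5-ko, and 2.39 and 2.59 in MEK5DD. These are 32 and 35, 3 and 10, and 232 and 289 reads. The ratio of MEK5DD to parental mean was 7.86 (exact 95% interval from counting error, 6.10 to 10.3) and that of ERK5-ko to parental mean 0.209 (0.109 to 0.392). FZD8 rose by 1.87 on the log2 scale with MEK5DD (standard error 0.179, adjusted p = 7.62e-06). The ERK5-ko difference of -0.53 had an adjusted p of 0.0632, and passed with a pseudocount of 0.1 (-1.36, adjusted p = 0.00345), with voom on the reads (-2.32, adjusted p = 0.0308) and with the libraries of this line alone (-0.53, adjusted p = 0.00905). In Hs-578T, FZD8 was at 6.50 and 7.98 RPKM in parental controls, 9.62 and 7.25 in ERK5-ko, and 4.14 and 6.10 in MEK5DD. Neither difference passed there, at 0.20 (adjusted p = 0.397) for ERK5-ko and -0.48 (adjusted p = 0.0775) for MEK5DD, and the latter passed without MEK5DD replicate 2 (-0.73, adjusted p = 0.0111).

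The antagonist DKK1 (ENSG00000107984.9, chromosome 10, 52314296 to 52318042, plus strand) was higher in ERK5-ko cells of both lines. In MDA-MB-231 it was at 295 and 271 RPKM in parental controls, 535 and 504 in ERK5-ko, and 348 and 328 in MEK5DD. In Hs-578T it was at 11 and 6.89, 22.1 and 25.0, and 20.1 and 21.1 RPKM. Every engineered library lay above the parental controls of its line, and those of MDA-MB-231 MEK5DD were nearest to them. DKK1 rose by 0.88 on the log2 scale in MDA-MB-231 ERK5-ko (standard error 0.161, adjusted p = 0.00368) and by 1.38 in Hs-578T ERK5-ko (standard error 0.161, adjusted p = 6.40e-05). With MEK5DD it rose by 1.20 in Hs-578T (adjusted p = 4.69e-04), and the MDA-MB-231 difference was 0.26 (adjusted p = 0.229, and 0.0254 with the libraries of this line alone). DKK1 shares 212 exonic bases with PRKG1-AS1 on the opposite strand, which stood at 0 to 2.81 RPKM. How reads in overlaps were assigned is not given in the sources used here.

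DKK3 (ENSG00000050165.17, chromosome 11, 11963106 to 12009769, minus strand) is a divergent Dickkopf protein that is not known to block LRP5 and LRP6 as DKK1 does. Its MDA-MB-231 libraries held only 24 and 43 reads in parental controls, 11 and 12 in ERK5-ko, and 15 and 27 in MEK5DD. The RPKM were 0.939 and 1.5, 0.471 and 0.465, and 0.603 and 0.942, so MEK5DD and parental controls overlapped. DKK3 fell by 0.81 on the log2 scale in MDA-MB-231 ERK5-ko (standard error 0.152, adjusted p = 0.00408). With MEK5DD it fell by 0.43 (adjusted p = 0.0420), a call lost without parental replicate 2 (-0.19, adjusted p = 0.391) or MEK5DD replicate 1 (-0.23, adjusted p = 0.341), and also without the filter on low values, with a pseudocount of 1, with other scaling, with all gene types, with voom and with the libraries of this line alone (adjusted p from 0.0534 to 0.175). In Hs-578T, DKK3 was among the most abundant members, at 213 and 221 RPKM in parental controls, 266 and 274 in ERK5-ko, and 297 and 293 in MEK5DD. The groups did not overlap, yet the differences of 0.32 in ERK5-ko (adjusted p = 0.121) and 0.44 with MEK5DD (adjusted p = 0.0562) missed the threshold, while both passed with the replicate block (adjusted p = 0.0392 and 0.0138) and with voom (adjusted p = 0.0222 and 0.00774). The MEK5DD difference also passed with a pseudocount of 1 and with other scaling (adjusted p from 0.0242 to 0.0446).

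AXIN2 (ENSG00000168646.12, chromosome 17, 65528563 to 65561647, minus strand), the feedback inhibitor often read as a gauge of beta-catenin signaling, was lowest in ERK5-ko in each line. In MDA-MB-231 it stood at 3.01 and 2.49 RPKM in parental controls, 1.93 and 1.83 in ERK5-ko, and 3.90 and 3.75 in MEK5DD. In Hs-578T it stood at 7.33 and 8.92, 4.0 and 3.90, and 7.73 and 9.20 RPKM. Only the parental and MEK5DD libraries of Hs-578T overlapped within a line. AXIN2 fell by 0.95 on the log2 scale in Hs-578T ERK5-ko (standard error 0.130, adjusted p = 2.00e-04) and by 0.44 in MDA-MB-231 ERK5-ko (standard error 0.130, adjusted p = 0.0377). The MDA-MB-231 call was lost without any 1 of its 4 libraries (-0.33 to -0.56). It was lost as well with median-ratio scaling, with quantile normalization, without the filter on low values and with voom (adjusted p from 0.0576 to 0.0747). MEK5DD was 0.42 higher in MDA-MB-231 (adjusted p = 0.0237), a call lost without parental replicate 2 (0.30), MEK5DD replicate 1 (0.39) or MEK5DD replicate 2 (0.44), with adjusted p from 0.0786 to 0.193. The Hs-578T MEK5DD difference was 0.06 (95% interval -0.23 to 0.34, adjusted p = 0.804). AXIN2 shares 1316 exonic bases with AC004805.1 on the same strand, so its reads are uncertain where the counting could split them.

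LEF1 (ENSG00000138795.9, chromosome 4, 108047545 to 108168956, minus strand), a nuclear partner of beta-catenin that is also a target of the pathway, spread more widely in MDA-MB-231 than in Hs-578T. It was at 3.67 and 3.78 RPKM in parental controls, 1.54 and 1.56 in ERK5-ko, and 14.0 and 13.8 in MEK5DD, with replicates close together. The ERK5-ko mean was 2.40-fold below and the MEK5DD mean 3.73-fold above the parental mean. LEF1 fell by 1.04 on the log2 scale in ERK5-ko (standard error 0.143, adjusted p = 6.13e-04) and rose by 1.77 with MEK5DD (standard error 0.143, adjusted p = 2.02e-06). In Hs-578T it was at 10.01 and 14.6 RPKM in parental controls, 16 and 16.5 in ERK5-ko, and 19.8 and 21.6 in MEK5DD, so both engineered groups were above parental controls whose replicates lay apart. LEF1 was 0.75 higher with MEK5DD (adjusted p = 0.00357) and 0.41 higher in ERK5-ko (adjusted p = 0.0400). The ERK5-ko call was lost without parental replicate 1 (0.15), ERK5-ko replicate 1 (0.44) or ERK5-ko replicate 2 (0.39), with adjusted p from 0.107 to 0.364. The antisense gene LEF1-AS1, which shares 279 exonic bases, reached 0.261 RPKM.

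By comparison, 5 of 10 members passed in MDA-MB-231 ERK5-ko, 2 higher and 3 lower (3 and 2 with median-ratio scaling), where 17.3% of all genes did. In Hs-578T ERK5-ko 7 of 10 passed, 4 higher and 3 lower, against 39.4% of all genes. MDA-MB-231 MEK5DD had 8 of 10, 6 higher and 2 lower (6 and 1 with median-ratio scaling), against 41.3%. Hs-578T MEK5DD had 5 of 10, 4 higher and 1 lower, against 23.4%. With the Hs-578T libraries fitted alone, the ERK5-ko calls of WNT5A, WNT5B, WNT7B and LEF1 and the MEK5DD calls of FZD7 and LEF1 were lost (adjusted p from 0.0519 to 0.166), which left 3 members in each comparison, where 22.2% and 6.55% of all genes then passed. The MDA-MB-231 libraries fitted alone had 7 members passing in ERK5-ko, where 29.6% of all genes did, and 9 in MEK5DD, where 52.9% did. The Hs-578T ERK5-ko calls of WNT7B and LEF1 were lost as well without the filter on low values (adjusted p = 0.0551 and 0.0626), that of WNT7B with median-ratio scaling (adjusted p = 0.0520) and that of WNT5A with a pseudocount of 0.1 (adjusted p = 0.163). The members were chosen with earlier results of these data known, so these counts are a description and are not independent evidence.

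Set directly against each other, the ERK5-ko and MEK5DD libraries are compared without the parental controls, whose passage labels are far from theirs in number. In MDA-MB-231, 9 of 10 members passed, 3 higher and 6 lower in ERK5-ko, where 55.0% of all genes did. In Hs-578T, 7 of 10 passed, 3 higher and 4 lower (2 and 5 with median-ratio scaling), where 50.0% of all genes did. WNT5B was lower in ERK5-ko by much the same amount in both lines, at -0.83 for MDA-MB-231 and -0.89 for Hs-578T (standard error 0.0892 each, adjusted p = 1.15e-05 and 1.09e-05). AXIN2 stood at -0.86 and -1.01 (adjusted p = 1.68e-04 and 8.02e-05) and FZD2 at -0.58 and -0.91 (adjusted p = 0.00168 and 9.76e-05). WNT5A was lower as well, at -2.57 and -0.45 (adjusted p = 1.79e-08 and 0.0111). Its Hs-578T call was lost without ERK5-ko replicate 2 (-0.43) and with a pseudocount of 0.1 (-0.45, adjusted p = 0.128).

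WNT7B was higher in ERK5-ko than in MEK5DD in both lines, by 3.28 for MDA-MB-231 (standard error 0.118, adjusted p = 1.58e-09) and 0.52 for Hs-578T (adjusted p = 0.00366). FZD7 was higher too, by 0.65 (adjusted p = 0.00145) and 0.36 (adjusted p = 0.0442). Its Hs-578T call was lost without ERK5-ko replicate 1 (0.37), ERK5-ko replicate 2 (0.34) or MEK5DD replicate 1 (0.12). It was lost as well without the filter on low values, with other scaling, with all gene types and with this line alone (adjusted p from 0.0530 to 0.158). FZD8 took opposite signs, with -2.40 in MDA-MB-231 (adjusted p = 5.73e-07) but 0.68 in Hs-578T (adjusted p = 0.00851). The latter call was lost without ERK5-ko replicate 1 (0.49) or MEK5DD replicate 1 (0.43), and with this line alone (0.68, adjusted p = 0.0716). LEF1 was lower in MDA-MB-231 by a mean ratio of 8.97 (log2 -2.81, adjusted p = 2.60e-08), and in Hs-578T the difference was -0.34 (adjusted p = 0.0673, 0.0303 with the replicate block, and from 0.0121 to 0.0471 with other scaling and voom). DKK1 was 0.62 higher in MDA-MB-231 ERK5-ko (adjusted p = 0.00650) and 0.19 apart in Hs-578T (95% interval -0.17 to 0.54). The DKK3 differences were -0.38 (adjusted p = 0.0516, 0.0129 with the replicate block, and from 0.0179 to 0.0312 with a pseudocount of 0.1, with quantile normalization and without MEK5DD replicate 1) and -0.13 (adjusted p = 0.517).

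**Figure D3:**
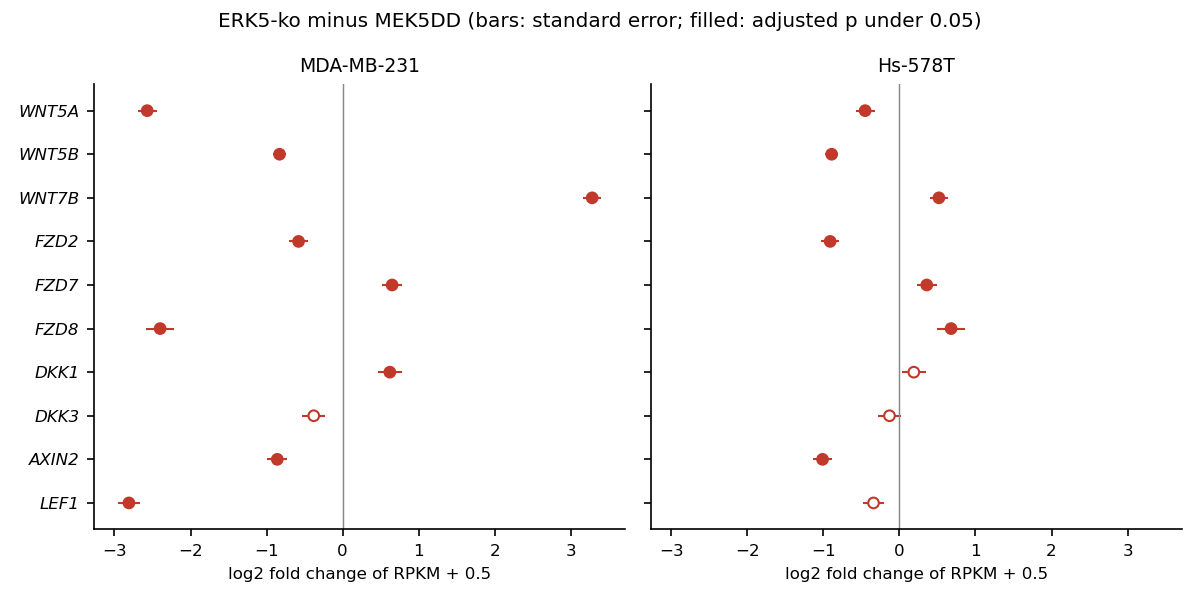
Log2 fold change of RPKM + 0.5 between ERK5-ko and MEK5DD libraries of each line, with positive values where ERK5-ko is higher. Bars are standard errors and filled points have an adjusted p under 0.05. WNT5B and AXIN2 sit at like places in both panels, while FZD8 changes sides, from -2.40 to 0.68.

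The lines themselves were compared by the difference between their effects. For ERK5-ko, 7 of 10 members passed, 3 with the MDA-MB-231 effect higher and 4 with it lower (4 and 3 with median-ratio scaling), and 39.8% of all genes did. For MEK5DD, 6 of 10 passed, 3 in each direction, and 39.6% of all genes did. On the log2(RPKM + 0.5) scale, LEF1 carried the widest gap in ERK5-ko, -1.04 in MDA-MB-231 against 0.41 in Hs-578T, a difference of -1.45 (standard error 0.203, adjusted p = 2.41e-04). WNT7B carried the widest gap with MEK5DD on that scale, -2.56 against -0.18, a difference of -2.38 (standard error 0.167, adjusted p = 1.40e-06). By ratios of mean RPKM to parental controls, with no pseudocount, the low genes lay further apart. In ERK5-ko these ratios were 0.209 and 1.17 for FZD8 and 0 and 1.35 for WNT5A, against 0.416 and 1.32 for LEF1. With MEK5DD they were 20.5 and 1.84 for WNT5A and 7.86 and 0.708 for FZD8, against 0.151 and 0.884 for WNT7B. WNT7B and DKK1 in ERK5-ko had the same sign in both lines, with differences of 0.38 (95% interval 0.01 to 0.74, adjusted p = 0.0938) and -0.50 (-1.0 to -0.00, adjusted p = 0.10). The WNT7B difference passed with median-ratio scaling (0.47, adjusted p = 0.0399), and the DKK1 difference passed without Hs-578T parental replicate 1 (-0.82, adjusted p = 0.00148).

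Around the members, a list of other Wnt genes held 75 genes, of which 68 were in the table and 56 passed the filter. In MDA-MB-231 ERK5-ko 7 of the 56 were higher and 7 lower, where 17.3% of all genes passed, and in Hs-578T ERK5-ko 11 were higher and 18 lower, where 39.4% passed. MEK5DD had 6 of them higher and 19 lower in MDA-MB-231, against 41.3% of all genes. Its Hs-578T counts were 9 and 12, against 23.4%. Their median log2 fold changes were -0.00, -0.09, -0.07 and -0.11 in these 4 comparisons, against -0.04, 0.01, -0.01 and -0.08 over all genes tested. Without the 11, 3, 11 and 2 list genes that held at most 3 reads per library in both groups, and with those at the floor in 1 group set to their bound, the medians were -0.04, -0.10, -0.15 and -0.11.

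**Figure D4:**
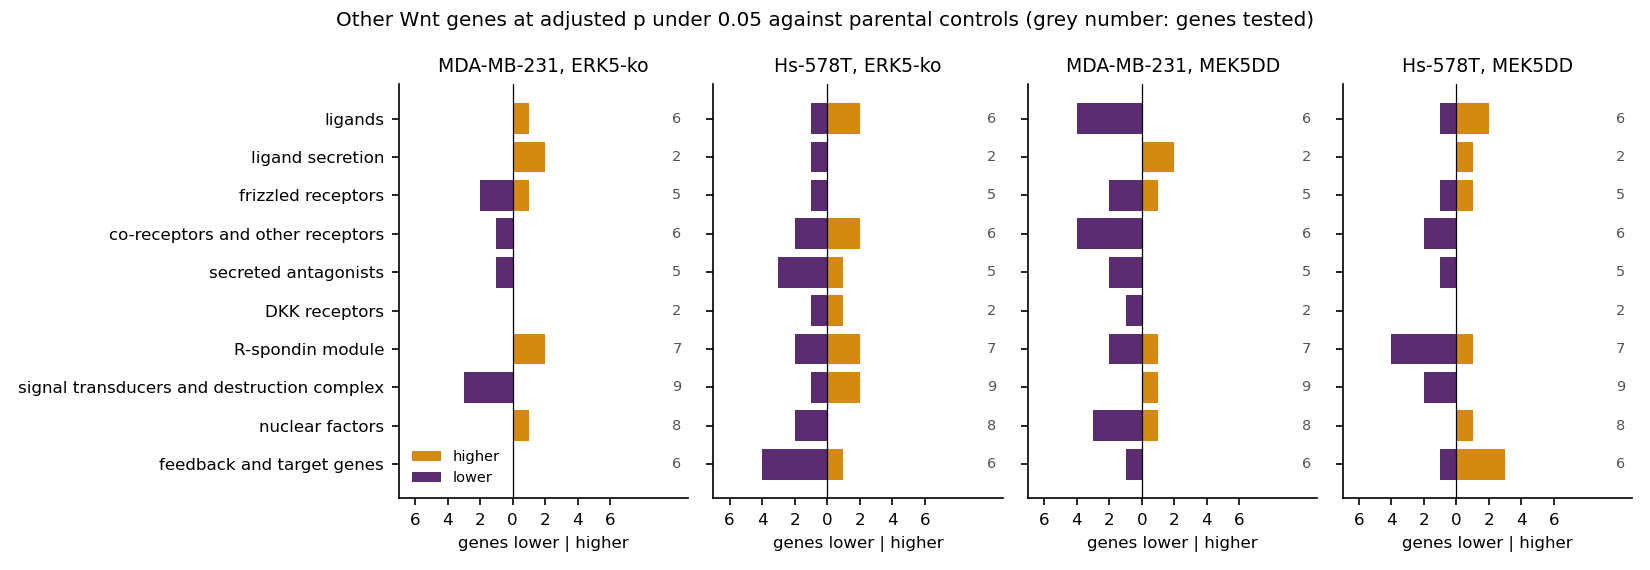
Number of other Wnt genes higher (right of 0) or lower (left of 0) than parental controls at an adjusted p under 0.05, by role, in the 4 comparisons, with the number tested in grey. In MDA-MB-231 MEK5DD, 4 of 6 other ligands and 4 of 6 co-receptors and other receptors lie on the lower side and 0 on the higher, where 23.8% of all genes were lower.

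In MDA-MB-231 MEK5DD, 4 of the 6 other ligands tested fell, namely WNT3 (-0.79), WNT9A (-0.63), WNT10A (-0.78) and WNT10B (-0.82 on the log2 scale), all at an adjusted p of 0.00715 or less, where 23.8% of all genes were lower. WNT10A rests on 0 and 2 reads in MEK5DD against 14 and 9 in parental controls, a ratio of parental to MEK5DD mean of 12.3 (exact 95% interval from counting error, 2.80 to 99.2). The ligand secretion genes PORCN, which attaches the lipid that Wnt proteins need, and WLS, which carries them to the surface, rose by 0.71 (adjusted p = 1.10e-04) and 0.47 (adjusted p = 9.50e-04), and in MDA-MB-231 ERK5-ko they rose as well, by 0.53 (adjusted p = 0.00329) and 0.42 (adjusted p = 0.00579). The co-receptor gene LRP5 went from 137 and 133 RPKM in parental controls to 35.0 and 37.0, a log2 fold change of -1.89 (adjusted p = 4.76e-07). The WNT5A co-receptor ROR1 went from 25.7 and 25.3 to 9.28 and 8.13 RPKM (-1.50, adjusted p = 1.87e-05), and PTK7, a pseudokinase co-receptor, from 10.6 and 10.1 to 4.10 and 3.91 RPKM (-1.27, adjusted p = 2.28e-06). RNF43, a ubiquitin ligase that removes Frizzled receptors from the surface, went from 4.75 and 4.86 to 0.338 and 0.305 RPKM (-2.69, adjusted p = 1.33e-08). CTNNBIP1, an inhibitor that binds beta-catenin, went from 87.8 and 86.7 to 26.4 and 27.0 RPKM (-1.69, adjusted p = 1.41e-07).

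In MDA-MB-231 ERK5-ko, PTK7 was lower as well, at 2.42 and 1.97 RPKM against 10.6 and 10.1 (-2.01, adjusted p = 7.63e-07). The ligand WNT10A went from 0.539 and 0.308 to 1.52 and 1.87 RPKM (1.25, adjusted p = 1.33e-04), and the R-spondin receptor LGR4 from 24.4 and 23.9 to 42.4 and 40.9 RPKM (0.77, adjusted p = 2.48e-04). SOST, a secreted antagonist of LRP5 and LRP6, went from 1.06 and 1.06 to 0.193 and 0.261 RPKM (-1.10, adjusted p = 2.64e-05). SOST reached the filter value of 0.5 RPKM only in these parental libraries. WNT10A would not have passed the filter without the ERK5-ko libraries. Both were thus tested through the group where they are high, so their calls are a description. FZD4 went from 1.67 and 1.37 to 0.702 and 0.646 RPKM (-0.78, adjusted p = 9.88e-04). CTNNB1, the beta-catenin gene, had a log2 fold change of -0.67 (adjusted p = 4.86e-04) there and of 0.25 (adjusted p = 0.0436) in Hs-578T ERK5-ko.

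In Hs-578T, the target and feedback genes other than AXIN2 were tested as a list of 6. In ERK5-ko 4 of them fell, 1 rose and TNFRSF19 did not pass, where 39.4% of all genes passed. With MEK5DD 3 rose, 1 fell and 2 did not pass, where 23.4% passed. APCDD1, a surface inhibitor of the pathway, went from 18.2 and 18.5 RPKM in parental controls to 2.83 and 2.23 in ERK5-ko and to 53.1 and 49.5 in MEK5DD. Its log2 fold changes were -2.64 (standard error 0.124, adjusted p = 6.61e-08) and 1.46 (adjusted p = 1.97e-05), the widest span of the target genes in this line. The feedback inhibitors NKD1 and NKD2 changed by -0.88 (adjusted p = 0.00577) and -0.60 (adjusted p = 0.0175) in ERK5-ko, and by 0.64 (adjusted p = 0.0423) and 0.35 (adjusted p = 0.173) with MEK5DD. NKD2 rests on 1 and 1 reads in ERK5-ko against 4 and 14 in parental controls, a ratio of parental to ERK5-ko mean of 10.7 (exact 95% interval from counting error, 2.5 to 92.6). It passed the filter only through parental replicate 2 (0.521 RPKM) and MEK5DD replicate 2 (0.601 RPKM), so its ERK5-ko call is a description. CCND1, the cyclin D1 gene, was higher in both, at 259 and 277 RPKM in ERK5-ko and 240 and 259 in MEK5DD against 130 and 152 in parental controls. SP5, a transcription factor gene of the pathway, was lower in both, at 10 and 8 reads in ERK5-ko and 0 and 1 in MEK5DD against 19 and 20. The ratio of the parental to the MEK5DD mean was 36.9 (exact 95% interval from counting error, 6.17 to 1478). In MDA-MB-231, NKD1, NKD2 and APCDD1 had 3 reads or fewer in every library and give no fold. Of the 6, 0 passed in MDA-MB-231 ERK5-ko, where 17.3% of all genes did. SP5 was at -0.16, TNFRSF19 at -0.30 and CCND1 at 0.08 there on the log2 scale. With MEK5DD, 0 of the 6 were higher in this line and 1 was lower, where 41.3% of all genes passed. SP5 went from 3.29 and 2.93 RPKM in parental controls to 1.42 and 1.26 in MEK5DD.

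**Figure D5:**
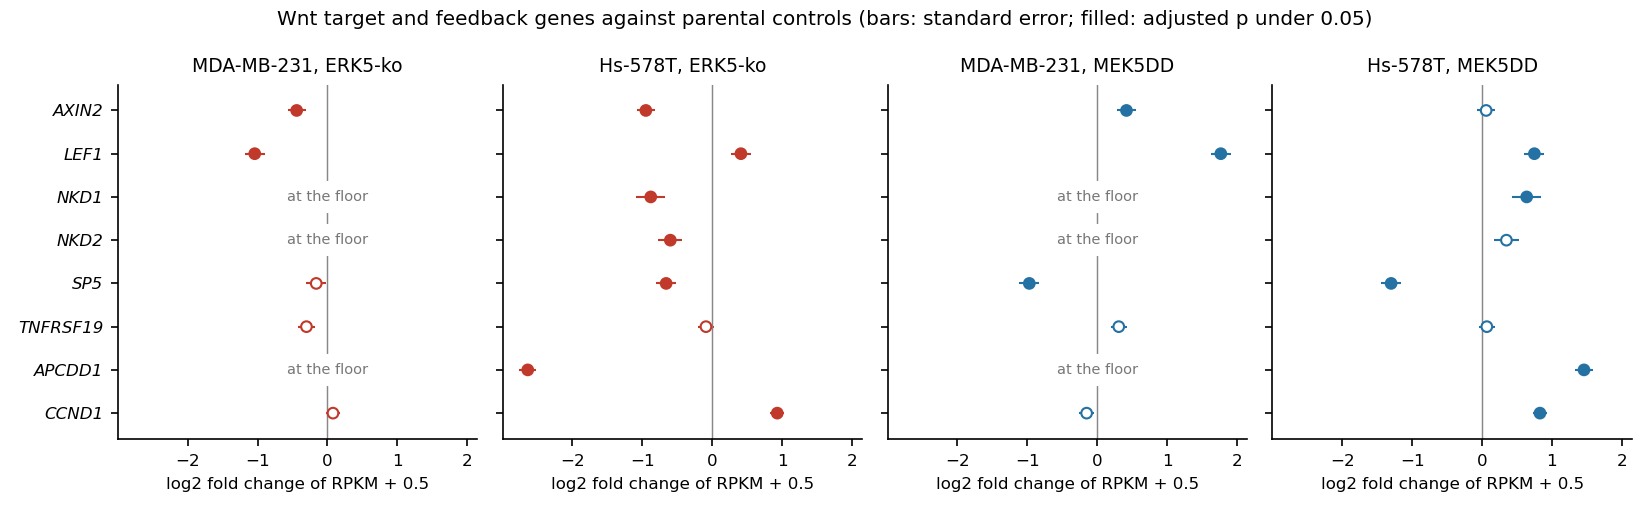
Log2 fold change of RPKM + 0.5 against parental controls for AXIN2, LEF1 and the 6 other target and feedback genes. Bars are standard errors, filled points have an adjusted p under 0.05, and genes with at most 3 reads per library in both groups are marked as at the floor. In Hs-578T, APCDD1 lies at -2.64 in ERK5-ko and at 1.46 in MEK5DD.

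Among other genes with large changes in Hs-578T ERK5-ko, SFRP2, which binds Wnt ligands, went from 40.0 and 42.2 to 11.1 and 9.95 RPKM (-1.91, adjusted p = 4.45e-07), and NOTUM, an enzyme that strips the lipid from Wnt proteins, from 3.27 and 3.15 to 0.900 and 0.553 RPKM (-1.61, adjusted p = 6.26e-06). TCF7, a relative of LEF1, went from 70.1 and 79.7 to 33.5 and 27.7 RPKM (-1.28, adjusted p = 8.95e-04), and ROR2, a WNT5A receptor, from 1.42 and 1.22 to 4.15 and 3.62 RPKM (1.27, adjusted p = 6.84e-06). WLS fell by 1.18 on the log2 scale (adjusted p = 1.88e-06). With MEK5DD, 4 of 7 genes of the R-spondin module fell, where 17.0% of all genes were lower, and 1 rose. The receptors LGR4 and LGR5 went from 41.9 and 42.6 to 17.9 and 19.9 RPKM (-1.14, adjusted p = 1.38e-05) and from 1.70 and 1.43 to 0.218 and 0.215 RPKM (-1.53, adjusted p = 6.79e-06). SFRP1, a ligand-binding antagonist, went from 8.79 and 9.13 to 3.66 and 3.98 RPKM (-1.13, adjusted p = 4.31e-05).

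Ordered by mean RPKM over the 6 groups, 7 of the members had all 3 Hs-578T groups above all 3 MDA-MB-231 groups or the reverse: WNT5A, WNT5B, WNT7B, FZD8, DKK3 and AXIN2 with Hs-578T on top, and DKK1 with MDA-MB-231 on top. FZD2, FZD7 and LEF1 did not. For LEF1, the MDA-MB-231 MEK5DD mean of 13.9 RPKM lay above the Hs-578T parental mean of 12.3, with overlapping libraries. For AXIN2, the Hs-578T ERK5-ko mean of 3.95 RPKM lay just above the MDA-MB-231 MEK5DD mean of 3.82, with overlapping libraries, so that its order there is not clear of the replicate spread. Levels should be compared between genes with care, because the gene models behind the RPKM are shorter than the annotated exons for some members, such as 2119 of 7397 exonic bases for WNT5A and 1180 of 5361 for LEF1.

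Across the 12 libraries, the tested gene with the highest Pearson correlation of log2(RPKM + 0.5) was TMPRSS15 for WNT5A (0.998), HLX for WNT5B (0.993) and RARG for WNT7B (0.991). It was PSPH for FZD2 (0.955), PEX5 for FZD7 (0.945) and CORO2B for FZD8 (0.993). For the antagonists and targets it was ENPP4 for DKK1 (0.994), TMEM47 for DKK3 (0.998), VDR for AXIN2 (0.98) and CAMK2G for LEF1 (0.988). The 12 libraries share 2 cell lines and 6 groups, so they are not independent points, and these values are a description with no test. Similar sequence between members was short, with identical stretches of at most 69 bases between FZD2 and FZD7 and of 35 between WNT5A and WNT5B.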

How the data were processed

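RNA-sequencing values of 12 libraries in 6 groups were analysed. The values deposited are RPKM, for which the authors divided the reads of a gene by the length of its model and by the library total, on GRCh38. Processing notes of the submitters name bcl2fastq, Trimmomatic 0.32, TopHat2 2.1.1, R 3.3.1 and DESeq2 1.12.4, and the labels give a stranded mRNA kit. The counting tool and annotation are not given in the sources used here. Reads were recovered from the steps between low RPKM values, and 100.0% of genes gave whole reads within 0.001 reads, with 92.0% to 94.5% of the totals on listed genes.

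The test took the 13737 of 17665 listed protein-coding genes that reached an RPKM of 0.5 in 2 or more libraries. A limma 3.58.1 model of log2(RPKM + 0.5), run in R 4.3.3, held 6 group means with 6 residual degrees of freedom and a variance trend. Within each of 9 comparisons, Benjamini-Hochberg adjustment was applied to p values, and a gene passes at an adjusted p under 0.05. Fold changes are on this log2 scale, which understates changes of low genes. The fit was tested on simulated data. Counting intervals are exact at 95% and, like the floor of 3 reads per library, cover counting error only.

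Other Wnt genes named are the 5 with the largest absolute change per comparison with parental controls among those passing with separate replicates. The target list is named whole, and WLS, PORCN, CTNNB1 and the ligands that fell were chosen after their values were seen. The 10 members, the list and the tests were chosen with earlier results of these data known. Replicate numbers come from the sample titles, and deviations of same-numbered libraries of a line correlated in all 6 pairs of groups (0.107 to 0.541), so a fit with the number as a block was run as an alternative. Others changed the pseudocount, filter, scaling, gene types, fold thresholds, libraries and model (limma voom on recovered reads). Figures used Python 3.11.15 and matplotlib 3.10.9.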

Additional observations from a re-analysis of the deposited data

Results flagged for a closer look

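Effects that differed between the cell lines, by the test of the difference itself (limma, adjusted over all genes tested), are given as the MDA-MB-231 minus the Hs-578T log2 fold change. For ERK5-ko, the difference was -0.74 for WNT5A (adjusted p = 0.00688), 0.65 for FZD2 (adjusted p = 0.0110), 0.71 for FZD7 (adjusted p = 0.0118) and -0.73 for FZD8 (adjusted p = 0.0380). It was -1.12 for DKK3 (adjusted p = 0.00183), 0.51 for AXIN2 (adjusted p = 0.0476) and -1.45 for LEF1 (adjusted p = 2.41e-04). By their mean levels, WNT5A, FZD8, DKK3 and LEF1 were below parental controls in MDA-MB-231 ERK5-ko and above them in Hs-578T ERK5-ko, and FZD7 the reverse, though WNT5A, FZD7 and FZD8 in MDA-MB-231 and DKK3, FZD7 and FZD8 in Hs-578T missed the threshold. AXIN2 was below the parental level in both lines, by more in Hs-578T.

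For MEK5DD, the difference was 1.39 for WNT5A (adjusted p = 1.09e-04), -2.38 for WNT7B (adjusted p = 1.40e-06) and 2.35 for FZD8 (adjusted p = 3.26e-05). It was -0.94 for DKK1 (adjusted p = 0.00708), -0.87 for DKK3 (adjusted p = 0.00770) and 1.02 for LEF1 (adjusted p = 0.00224). WNT5A, WNT7B and LEF1 had the same sign in both lines, with the larger change in MDA-MB-231, and DKK1 the larger change in Hs-578T. MAP2K5 itself differed, with a MEK5DD effect 3.26 larger in MDA-MB-231 (adjusted p = 4.84e-08). Its part in these differences was not tested.

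The ERK5-ko difference of FZD8 was lost without any 1 of the libraries MDA-MB-231 parental 1 or 2, MDA-MB-231 ERK5-ko 1 or 2, Hs-578T parental 1 or Hs-578T ERK5-ko 1 (-0.54 to -0.82). That of AXIN2 was lost without MDA-MB-231 parental 2, either ERK5-ko library of either line or Hs-578T parental 2 (0.37 to 0.54), and that of FZD2 without Hs-578T ERK5-ko 2 (0.55, adjusted p = 0.0556). The FZD8 difference was also lost without the filter on low values, with a pseudocount of 1, with other scaling and with all gene types (adjusted p from 0.0543 to 0.0989), and the AXIN2 difference without the filter, with a pseudocount of 0.1, with all gene types and with voom (adjusted p from 0.0573 to 0.12).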

How the results depend on the processing

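Of 64 member values that passed, 48 passed under every alternative run on single member values and 16 were lost under at least 1. The fold thresholds of the study were applied to counts only and are not among these alternatives. Over 1310 repeats of the 90 member values, 1189 kept direction and side of the threshold, 81 lost and 35 gained a call, and 5 turned sign, all of them under the threshold and on leaving out 1 library: AXIN2 in Hs-578T MEK5DD (-0.08 without parental replicate 1, -0.06 without MEK5DD replicate 2, up to 0.19), FZD2 there (-0.01 without parental replicate 2, -0.04 without MEK5DD replicate 2, up to 0.17) and the WNT5B difference of MEK5DD effects (-0.05 without Hs-578T MEK5DD replicate 1, up to 0.18). With the replicate number as a block, which pairs same-numbered libraries of a line, 7 member values gained a call, the DKK3, FZD7 and LEF1 values given in the report and the FZD7 difference of MEK5DD effects (0.42, adjusted p = 0.0398), and it changed no other member's call. Without Hs-578T MEK5DD replicate 2 that FZD7 difference was 0.65 (adjusted p = 0.00239).

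With the study's thresholds added, a fold above 1.5 or below 0.5, 3 members passed in MDA-MB-231 ERK5-ko, 1 in Hs-578T ERK5-ko, 5 in MDA-MB-231 MEK5DD, 2 in Hs-578T ERK5-ko against MEK5DD and 4 in the ERK5-ko difference, and of the other list genes 4, 12, 9 and 9 in the comparisons with parental controls (Hs-578T MEK5DD last), 15 and 20 between ERK5-ko and MEK5DD in MDA-MB-231 and Hs-578T, and 16 in the MEK5DD difference. The share of all genes under these thresholds was not computed, so these counts have no background to be read against. With the libraries of each line fitted alone, Hs-578T ERK5-ko had 3 members and 17 list genes and Hs-578T MEK5DD 3 and 11. MDA-MB-231 ERK5-ko had 7 and 17 and MDA-MB-231 MEK5DD 9 and 30. The shares of all genes in these fits are given above. In the fits without 1 library that follow, fewer of all genes passed than in the main fit of the same comparison. Lower counts there thus do not single out the members or the list genes. On leaving out 1 library, members passing ranged from 3 to 6 in Hs-578T ERK5-ko (3 without parental replicate 1 or either ERK5-ko replicate) and from 5 to 7 in MDA-MB-231 MEK5DD (5 without parental replicate 2), and other list genes from 9 to 11 in MDA-MB-231 ERK5-ko (9 without parental replicate 1) and from 19 to 27 in Hs-578T ERK5-ko (19 without either ERK5-ko replicate). Scaling moved the split of all genes: the main counts of higher and lower genes were 949 and 1430 in MDA-MB-231 ERK5-ko and 884 and 2329 in Hs-578T MEK5DD, and with median-ratio scaling 1261 and 1127, and 1290 and 1630. In MDA-MB-231 MEK5DD 2410 and 3263 became 3162 and 2812 with quantile normalization. The cause of these moves was not tested, apart from the stricter thresholds and fewer libraries by construction. Depth limits WNT5A, FZD8 and DKK3 in MDA-MB-231, which rest on 0 to 43 reads per library outside MEK5DD.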
